A study of Polistes metricus with 16 samples.

Results

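Of 24183 assembled transcripts ranked in larval heads of the paper wasp Polistes metricus, 100 were selected because their levels moved the same way with the queen path in the field and with feeding in the laboratory. The higher list holds the 50 transcripts whose level was most clearly higher both on the queen path (worker-reared against foundress-reared) and with ample food (ad libitum against restricted). The lower list holds the 50 whose level was most clearly lower in both. Levels are counts per 1000000 counts of a library (CPM) after scaling by TMM, which corrects library totals for a few very abundant transcripts. Rows with a mean of at least 1 CPM were ranked by t, the difference between group means on log2(CPM + 0.5) divided by its standard error with a separate variance for each group, and a row's place was set by the weaker of its 2 t values. The members were thus chosen by their caste and nutrition differences, which are given below as a description and no test is made of them. Every member had counts in all 16 libraries, as did 99% of the rows ranked, and all 100 passed the filter on low counts used for the test of field against laboratory larvae.

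Single heads of female larvae in instar 5 were sequenced, with 4 larvae in each of 4 groups, and the labels name no treatment other than the food supply. Worker-reared larvae, on the queen path, were collected from Iowa field nests late in the summer of 2010, and foundress-reared larvae, on the worker path, were collected there late in the spring of that year. Restricted and ad libitum larvae came from North Carolina nests kept in a laboratory in 2009 and given prey every 3 days or every 1 day. Season cannot be told apart from rearing caste, nor year, place and population from field against laboratory. Replicate numbers follow the order of the records, and the labels do not say which larvae were nest mates, so a p-value here reflects the spread among the larvae sampled.

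In Polistes, foundresses rear the first brood of workers, and those workers later rear the females that found nests in the next year. Adult females of both castes look much alike, and the food a larva receives is held to be a main influence on which path it takes. In social insects more widely, nutrient sensing through insulin and TOR signalling, juvenile hormone and hexamerin storage proteins has been linked to caste. The lists ask which transcripts differ in the same direction with the queen path and with more food. The table names transcripts by identifier, with no gene name, so members are described by their levels and no role or sequence is given for them.

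The 2 lists filled the sparse corners of the ranking, with 45.9% of all rows having the same sign in both differences. In the higher list the weaker t ran from 4.59 down to 2.35, and in the lower list its size ran from 3.76 down to 2.05. Lists of 50 taken in the same way from rows of opposite sign ended at higher values, at 3.19 for transcripts higher in worker-reared and restricted larvae and at 3.27 for those higher in foundress-reared and ad libitum larvae. In all, 615 rows of opposite sign reached the last t of the higher list in both differences, and 1048 reached that of the lower list. The last members of the higher list were PmetTSAr1.1-007830 (t of 3.58 for caste and 2.35 for nutrition) and PmetTSAr1.1-005911 (2.46 and 2.35), and the first rows outside it were PmetTSAr1.1-018160 (3.66 and 2.35) and PmetTSAr1.1-004678 (2.88 and 2.33). The lower list ended with PmetTSAr1.1-028033 (-2.05 and -2.11) and PmetTSAr1.1-025923 (-2.05 and -2.53), with PmetTSAr1.1-018226 (-2.05 and -4.92) and PmetTSAr1.1-017077 (-2.05 and -2.91) just outside. The edges of the lists thus separate rows with nearly the same values.

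**Figure D1:**
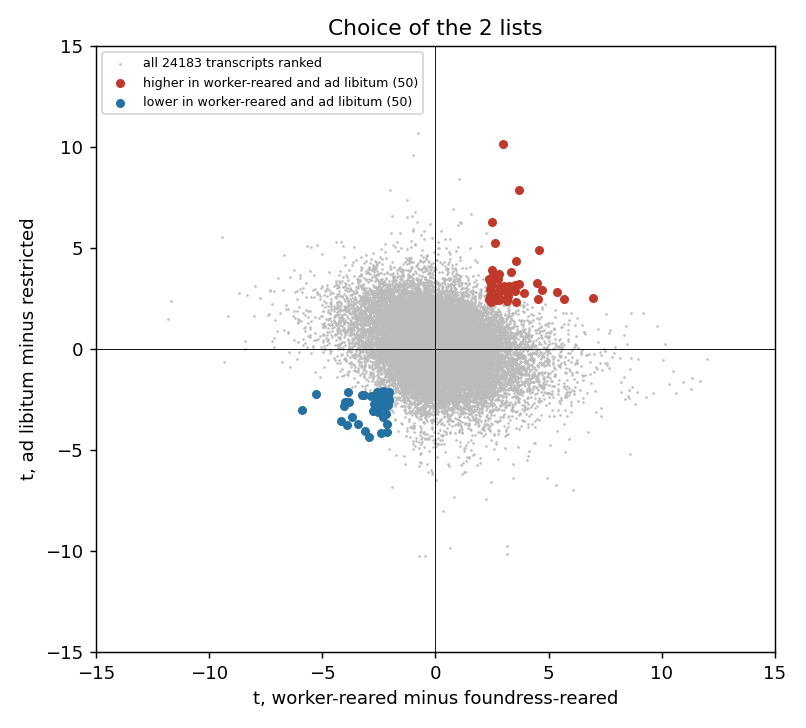
The t of the caste difference (x axis) and the nutrition difference (y axis) for each of the 24183 transcripts ranked (grey), with the higher list in red and the lower list in blue. The lists occupy the upper right and lower left corners, where the cloud is thinner than in the corners of opposite sign.

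Differences in the lists were small. In the higher list the median log2 difference was 0.41 for worker-reared minus foundress-reared (range 0.15 to 0.99) and 0.38 for ad libitum minus restricted (range 0.14 to 1.06). In the lower list the medians were -0.42 (range -2.43 to -0.06) and -0.41 (range -1.19 to -0.15). Over all rows ranked the medians were -0.01 and 0.04. No member of the higher list differed by over 1 on the log2 scale in both pairs of groups. In the lower list 2 did, PmetTSAr1.1-021777 and PmetTSAr1.1-007895. Of all 24183 rows ranked, 327 differed by over 1 in both pairs, in the same or in opposite directions. The spread within groups was also small, with a median SD of 0.204 in the higher list and 0.233 in the lower list against 0.316 over all rows, a quantity that enters the t by which members were chosen. In bulk heads, fewer cells of a type and less RNA per cell cannot be told apart.

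PmetTSAr1.1-034841 had the highest weaker t of the higher list. It measured 4.64, 3.32, 3.92 and 2.45 CPM in worker-reared replicates 1 to 4 against 1.97, 1.49, 1.27 and 1.8 CPM in foundress-reared larvae, and 2.94, 2.36, 1.67 and 3.33 CPM with ad libitum food against 1.19, 1.16, 0.766 and 0.98 CPM with restricted food. Neither pair of groups overlapped, and the log2 differences were 0.92 for caste and 0.99 for nutrition. Its level in the lowest ad libitum larva lay below that in foundress-reared replicates 1 and 4, so the 8 larvae of the high groups did not all exceed the 8 of the low groups.

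PmetTSAr1.1-018790 had similar high and low levels in the field and in the laboratory. Worker-reared larvae had 3.83, 4.11, 4.75 and 3.65 CPM and ad libitum larvae 4.5, 4.29, 5.05 and 5.02 CPM, while foundress-reared larvae had 2.67, 2.93, 3.51 and 2.51 CPM and restricted larvae 3.42, 3.32, 3.42 and 3.24 CPM. All 8 larvae of the high groups exceeded all 8 of the low groups. The log2 differences were 0.43 for caste and 0.44 for nutrition.

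PmetTSAr1.1-026909 was at 6.84 to 8.61 CPM in worker-reared and 8.31 to 9.47 CPM in ad libitum larvae, against 4.36 to 7.08 CPM in foundress-reared and 5.54 to 7.57 CPM in restricted larvae. In the field, worker-reared replicate 4 (6.84 CPM) lay below foundress-reared replicate 3 (7.08 CPM). PmetTSAr1.1-021789 was steady with ad libitum food, at 2.63 to 2.75 CPM, against 1.81 to 2.39 CPM with restricted food. Worker-reared replicate 1 (2.45 CPM) fell below foundress-reared replicate 3 (2.51 CPM) and the other worker-reared larvae had 2.97 to 3.07 CPM. PmetTSAr1.1-027205 was low throughout, at 1.78 ± 0.26 CPM in worker-reared, 1.1 ± 0.174 in foundress-reared, 1.42 ± 0.216 with ad libitum and 0.988 ± 0.159 CPM with restricted food (SD, n = 4 each). PmetTSAr1.1-026064 had the larger difference with feeding, with 3.34 to 4.94 CPM under ad libitum and 1.59 to 3.28 CPM under restricted food (log2 difference 0.76), against 3.06 to 4.12 and 2.02 to 2.9 CPM in the field (0.44). In each of these 4 transcripts at least 1 larva of a high group came within 0.1 CPM of the low group or crossed into it.

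Among the more abundant members of the higher list, PmetTSAr1.1-003250 had 35.1, 34.5, 52.9 and 48.6 CPM in worker-reared and 26.2, 25.6, 22.7 and 22.5 CPM in foundress-reared larvae. With ad libitum food it had 32.5, 32.9, 31.6 and 37.3 CPM, and with restricted food 21.2, 12.9, 27.4 and 24 CPM. All larvae of the high groups exceeded all of the low groups, and the log2 differences were 0.79 and 0.69. PmetTSAr1.1-005728 was separated in the same way, at 26.3 to 38.6 and 24.6 to 27.8 CPM in worker-reared and ad libitum larvae against 16.2 to 22.8 and 16.6 to 23.9 CPM in foundress-reared and restricted larvae. PmetTSAr1.1-006057 differed little, at 40.8 ± 2.44 against 35.3 ± 2.46 CPM for caste and 37.5 ± 1.58 against 33.9 ± 1.67 CPM for nutrition (SD, n = 4 each). PmetTSAr1.1-007441 overlapped in the field (34.3 to 43.3 against 28 to 34.9 CPM) and in the laboratory (33.4 to 40.8 against 21.9 to 34.7 CPM).

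The lower list was led by PmetTSAr1.1-023597, with 1.93, 2.37, 1.48 and 1.15 CPM in worker-reared and 2.76, 3.75, 3.33 and 2.96 CPM in foundress-reared larvae. It had 3.24, 3.23, 3.09 and 2.8 CPM with ad libitum food and 4.32, 3.5, 3.65 and 4.26 CPM with restricted food. Both pairs of groups were separate, while foundress-reared and ad libitum larvae shared a range, so that the level fell in steps from restricted to worker-reared larvae. PmetTSAr1.1-003302 had the same order of groups, at 3.34 ± 0.29 CPM in restricted, 2.64 ± 0.381 in foundress-reared, 2.58 ± 0.417 in ad libitum and 1.65 ± 0.306 CPM in worker-reared larvae (SD, n = 4 each).

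PmetTSAr1.1-001606 and PmetTSAr1.1-001359 had nearly equal levels in the 2 low groups and nearly equal levels in the 2 high ones. PmetTSAr1.1-001606 measured 37 to 41.4 CPM in worker-reared and 38.7 to 42 CPM in ad libitum larvae, against 45 to 53.3 CPM in foundress-reared and 43 to 52.3 CPM in restricted larvae. PmetTSAr1.1-001359 measured 71.2 to 78.2 and 70.5 to 79.8 CPM against 81.2 to 90.9 and 79.7 to 93.2 CPM. The first separated all 8 low from all 8 high larvae. In the second, ad libitum replicate 3 (79.8 CPM) lay above restricted replicate 4 (79.7 CPM).

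PmetTSAr1.1-022419 was low in worker-reared larvae, at 1.44, 1.45, 1.29 and 1.72 CPM, and had 2.15, 2.23, 2.01 and 2.06 CPM in foundress-reared larvae. Ad libitum larvae had 1.62, 1.96, 1.63 and 1.8 CPM and restricted larvae 2.56, 3.69, 2.18 and 2.26 CPM. PmetTSAr1.1-019765 had 9.62, 11.4, 6.38 and 7.88 CPM in worker-reared against 22.9, 13.6, 12.5 and 14.3 CPM in foundress-reared larvae, and 7.91, 9.72, 9.86 and 8.88 CPM against 13.4, 17.2, 12.5 and 11.7 CPM in the laboratory. All low larvae were below all high larvae in both transcripts. PmetTSAr1.1-020313 was 2.49 ± 0.608 CPM in worker-reared and 2.49 ± 0.244 CPM in ad libitum larvae, against 3.85 ± 0.703 and 3.36 ± 0.317 CPM (SD, n = 4 each). PmetTSAr1.1-016043 differed by only -0.06 on the log2 scale for caste (12.1 to 12.6 against 12.6 to 13 CPM) and had little spread within groups in the field, with an SD of 0.227 and 0.189 CPM.

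Levels among the abundant members were 343 ± 34 CPM in worker-reared, 395 ± 8.3 in foundress-reared, 373 ± 25.2 with ad libitum and 412 ± 22.1 CPM with restricted food for PmetTSAr1.1-000926, and 206 ± 20.4, 258 ± 34.6, 208 ± 26.6 and 272 ± 44.2 CPM for PmetTSAr1.1-000801 (SD, n = 4 each). Near the end of the lower list, PmetTSAr1.1-028033 had 8.34, 4.27, 1.71 and 2.02 CPM in foundress-reared and 0.784 to 1.98 CPM in worker-reared larvae, so that foundress-reared replicates 1 and 2 lay well above the other 6 field larvae and replicate 3 lay among the worker-reared ones.

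**Figure D2:**
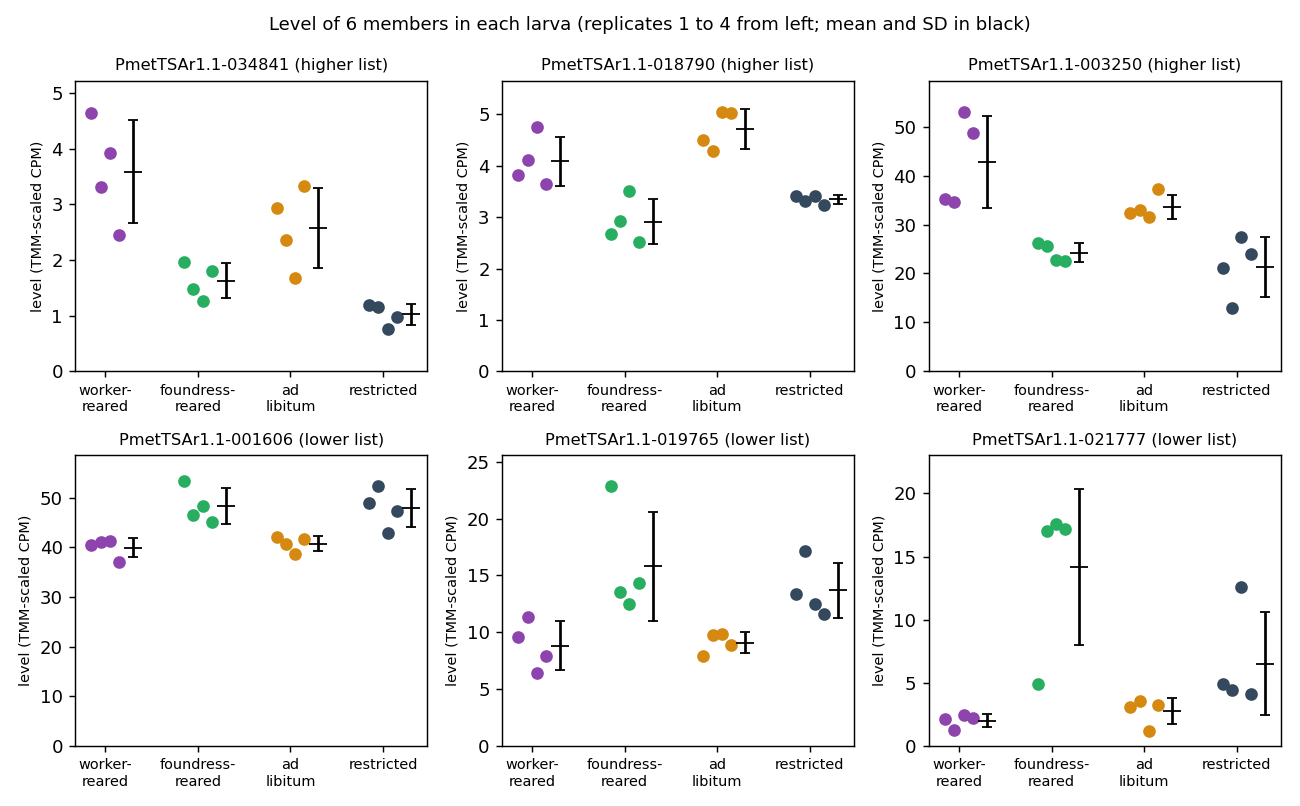
Level in TMM-scaled CPM (y axis, from 0) of 6 members in each of the 4 groups. Each point is 1 larva, ordered from replicate 1 to 4, and the black bar is the mean ± SD of 4 larvae. In PmetTSAr1.1-021777 foundress-reared replicate 1 (4.87 CPM) and restricted replicate 3 (12.6 CPM) stand away from their groups.

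The largest caste difference of the 100 belonged to PmetTSAr1.1-021777, a member singled out after its values were seen. Foundress-reared larvae had 4.87, 17, 17.6 and 17.2 CPM against 2.1, 1.24, 2.42 and 2.21 CPM in worker-reared larvae, and restricted larvae had 4.89, 4.41, 12.6 and 4.08 CPM against 3.08, 3.53, 1.21 and 3.25 CPM with ad libitum food. PmetTSAr1.1-021651, also chosen after its values were seen, was high in the same 4 larvae, at 13.8, 16.7 and 16.4 CPM in foundress-reared replicates 2 to 4 and 11.7 CPM in restricted replicate 3, and lay between 3.45 and 7.2 CPM in the other 12. PmetTSAr1.1-007895, likewise chosen after its values were seen, reached 15.9 CPM in foundress-reared replicate 1 and 11.5 CPM in restricted replicate 3, with 1.03 to 9.02 CPM elsewhere. Restricted replicate 3 was the highest restricted larva in all 3, and foundress-reared replicate 1 was the lowest of its group in the first 2 and the highest in the third.

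Groups were fully separated in some members only. In the higher list every worker-reared larva lay above every foundress-reared larva in 17 of 50 transcripts, where 5.86% of all rows did, and every ad libitum larva above every restricted larva in 25, against 3.43%. In the lower list the counts were 19, against 4.54%, and 18, against 2.41%. Both pairs were separate in 9 members of the higher list and 10 of the lower list, and in 0.0414% of all rows in each direction. Nothing is read from these shares, because the same differences chose the members. All 8 larvae of the high groups exceeded all 8 of the low groups in 4 members of the higher list and 6 of the lower list, and in no other row ranked. Groups overlapped in both pairs in 17 and 23 members, and in 20504 of the 24183 rows ranked. The choice of members bears on these counts as well.

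In the higher list the highest mean was in worker-reared larvae for 35 members and in ad libitum larvae for 15, and the lowest was in restricted larvae for 32 and in foundress-reared larvae for 18. In the lower list the lowest mean was in worker-reared larvae for 34 and in ad libitum larvae for 16, and the highest in restricted larvae for 32 and in foundress-reared larvae for 18. The rule allows no other groups at the top or the bottom. The lists were less abundant than the ranking as a whole, with a median of 4.29 CPM in the higher list and 6.53 CPM in the lower list against 7.63 CPM over all rows. A mean under 5 CPM was found in 54% of the higher list, 46% of the lower list and 41.4% of all rows.

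The direction of the lower list in the field depended on the scaling of the libraries. TMM factors were 1.01 to 1.33 in worker-reared and 0.678 to 1.19 in foundress-reared larvae, and 10 transcripts held 7.59% to 10.2% of the counts in the former and 10% to 32.1% in the latter. With library totals alone, the median caste difference of all rows moved from -0.01 to 0.40, that of the higher list to 0.83 and that of the lower list to -0.045, and 27 of 50 members of the lower list stayed below 0. Relative to the median of all rows, all 50 members of each list kept their direction, with medians of 0.43 and -0.45. For the nutrition difference the 4 scalings tried (TMM, upper quartile, DESeq2 size factors and library totals) put the median of all rows between 0.03 and 0.07, and all 100 members kept their sign.

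Mean levels of the lists in single larvae differed within groups. Every larva had a part in the choice of members, so the side on which each group lies follows from that choice. The higher list lay 0.15 to 0.40 (log2) above its mean over 16 larvae in worker-reared larvae and 0.10 to 0.27 above it with ad libitum food, and 0.11 to 0.27 and 0.10 to 0.33 below it in foundress-reared and restricted larvae. The lower list lay below its mean in each worker-reared and ad libitum larva and above it in each foundress-reared and restricted larva, and restricted replicate 4 was nearest to the mean, at 0.03, against 0.27 to 0.43 in the other restricted larvae. Restricted replicate 4 was the restricted larva closest to the ad libitum side in 28 of 50 members of each list. Ad libitum replicate 3 was the ad libitum larva closest to the restricted side in 29 of the higher and 22 of the lower list. In the field, worker-reared replicate 2 was closest to the other group in 21 and 26 members and foundress-reared replicate 3 in 21 and 16. For the other 12 larvae the counts were 3 to 18. No such counts are given for all rows ranked, so whether they are particular to the members was not tested.

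**Figure D3:**
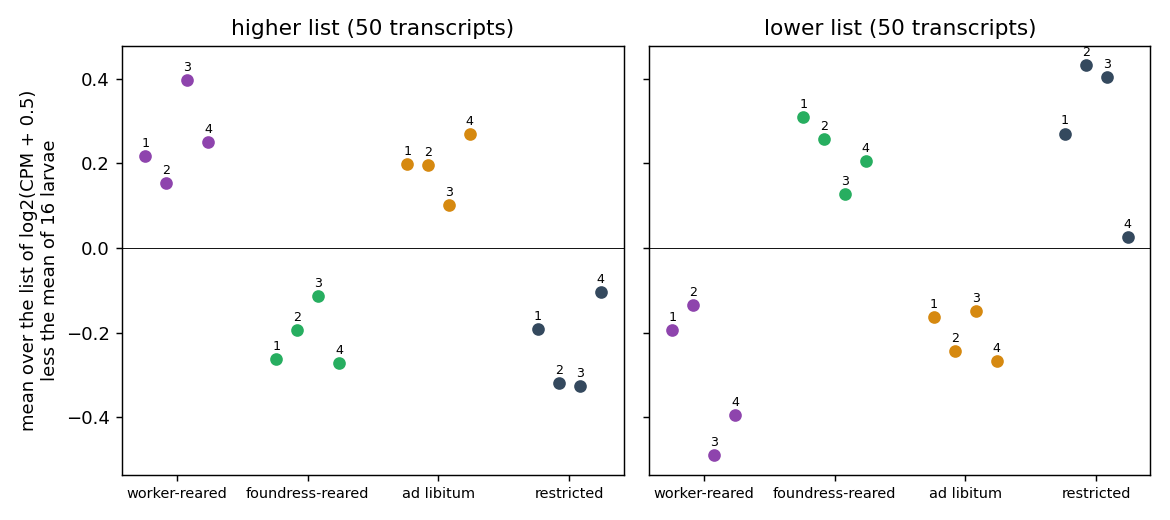
Mean over the 50 transcripts of each list of log2(CPM + 0.5) less the transcript's mean over 16 larvae (y axis), by group (x axis). Each point is 1 larva with its replicate number. Restricted replicate 4 (0.03 in the lower list) and ad libitum replicate 3 (0.10 in the higher list) lie nearest to 0 in their groups.

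To read the pattern in larvae that had no part in the choice, the lists were chosen anew without each larva in turn, and the transcripts whose level in that larva lay nearer to the mean of its own group than to that of the paired group were counted. The count was 81 of 100 for worker-reared replicate 3, 80 for replicate 4, 56 for replicate 1 and 31 for replicate 2. Foundress-reared larvae gave 48, 61, 40 and 72 for replicates 1 to 4. Ad libitum larvae gave 71, 81, 22 and 86, and restricted larvae 51, 84, 57 and 15. In total 11 larvae had over 50 of 100 transcripts with their own group and 5 had under 50. The same reading over all rows ranked gave 24.2% for restricted replicate 4, 43.8% for ad libitum replicate 3, 40.6% for foundress-reared replicate 3 and 49.9% to 74% for the other larvae. The share of list members exceeded the share of all rows in 7 larvae and was below it in 9. These shares are not alike, because the lists were chosen for differences among the remaining larvae and all rows were not. Nothing is read from which of them was larger.

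**Figure D4:**
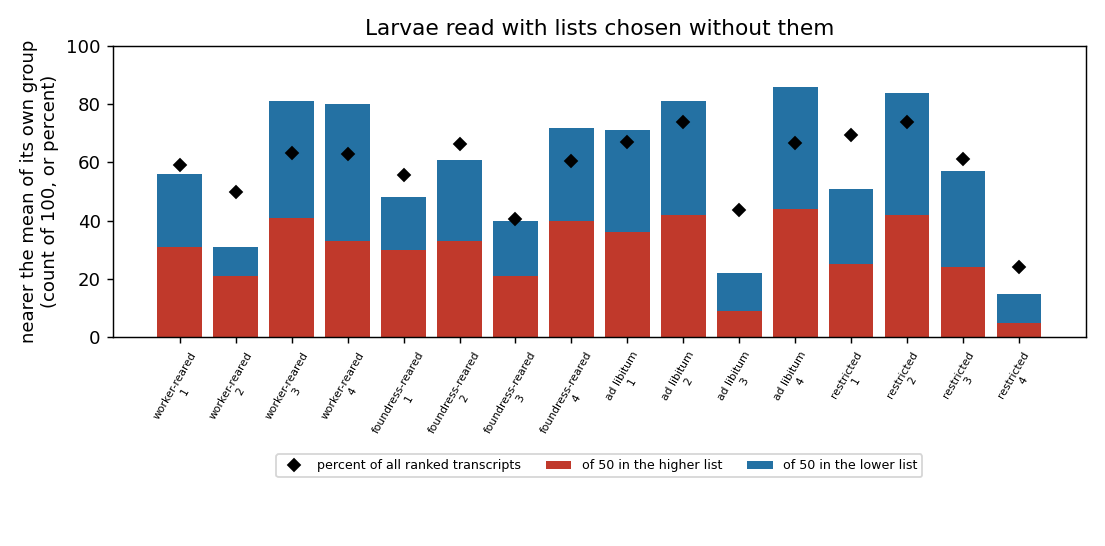
Number of 100 transcripts nearer to the mean of the larva's own group (stacked bars, red for the higher and blue for the lower list), each larva read with lists chosen without it, and the percent of all ranked transcripts read in the same way (black diamonds). Restricted replicate 4 (15) and ad libitum replicate 3 (22) have the lowest bars.

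The choice of members changed most when restricted replicate 4 or ad libitum replicate 3 was left out. Without restricted replicate 4 the rule chose 34 of the 100 members again, without ad libitum replicate 3 it chose 39, and without any other larva 61 to 79. Without both it chose 12. Restricted replicate 4 stood apart on the main axis of variation, the first principal component of the 500 most variable transcripts (45.9% of their variance), at -48.3 against 19.3 to 32.1 in the other restricted larvae. Ad libitum replicate 3 was at 37.2 on it, against -30.4 to -1.12 in the other ad libitum larvae, and its 10 most abundant transcripts held 28.1% of counts against 8.68% to 14.1%. The part of this axis in the choice of members was not tested. After subtraction of group means, the absolute correlation with the axis over 16 larvae had a median of 0.373 in the higher list, 0.418 in the lower list and 0.541 over all rows, and exceeded 0.7 in 6%, 16% and 31.5% of them.

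With group means subtracted, members of a list varied together weakly, and the lists tended to vary in opposite directions. The mean correlation between pairs over the 16 larvae was 0.146 within the higher list, 0.195 within the lower list and -0.156 between the lists. Over all rows it was 0.00449, a signed mean over pairs of both directions, and so not a like baseline for lists chosen by direction. The correlation of a pair exceeded 0.9 in 5 of 4950 pairs of members (0.101%) and in 0.304% of all pairs of rows. The highest was 0.947, for PmetTSAr1.1-019765 and PmetTSAr1.1-019229, which both peaked in foundress-reared replicate 1, at 22.9 and 16.4 CPM. Consecutive identifiers occurred in 3 pairs, PmetTSAr1.1-005906 with PmetTSAr1.1-005907 (0.91), PmetTSAr1.1-006785 with PmetTSAr1.1-006786 (0.88) and PmetTSAr1.1-017055 with PmetTSAr1.1-017056 (0.872). Each pair lay in 1 list. Near-identical transcripts can share reads, so these pairs may not be separate observations.

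A difference of means the rule did not use is that between the 8 field and the 8 laboratory larvae. The rule did use the spread within groups, which was smaller in the lists and also enters the error of this test. The difference was tested with edgeR's quasi-likelihood test in 1 model of 4 group means, with Benjamini-Hochberg adjustment over 36337 transcripts. An adjusted p under 0.05 was reached by 0.98% of all transcripts and by 1 of the 100 members, a share near that background. The member was PmetTSAr1.1-016254 of the higher list, with 10.7, 13.3, 9.47 and 11.2 CPM in worker-reared and 8.85, 8.17, 8.26 and 7.63 CPM in foundress-reared larvae, and 6.58, 7.55, 7.77 and 7.51 CPM with ad libitum and 6.12, 5.71, 5.15 and 7.02 CPM with restricted food. It was higher in the field, at 9.7 ± 1.91 against 6.68 ± 0.952 CPM (SD, n = 8 each, log2 fold change 0.53, SE 0.0982, edgeR adjusted p = 0.0166). The lowest field larva (7.63 CPM) lay within the laboratory range, and the other 7 field larvae lay above it.

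No member of the lower list passed this edgeR test. The closest was PmetTSAr1.1-014247, with a log2 fold change of -1.56 (SE 0.372) and an edgeR adjusted p of 0.0629. PmetTSAr1.1-023597 followed at -0.57 (SE 0.14, edgeR adjusted p = 0.0723), and then came PmetTSAr1.1-003302 at -0.50 (SE 0.129, edgeR adjusted p = 0.0886). PmetTSAr1.1-014247 is named after its values were seen: it had 0.233 to 1.04 CPM in the 8 field larvae, 0.326 to 1.16 CPM with ad libitum food and 0.752 to 4.32 CPM with restricted food. An unadjusted edgeR p under 0.05 was reached by 10 members of the higher list and 9 of the lower list, or 20% and 18%, against 15.6% of all transcripts tested. Nothing is read from these shares, because the choice of members favoured a small spread within groups. DESeq2 called 3 members of each list, where it called 3.18% of all transcripts, and limma voom called 1 of the higher and 0 of the lower list, against 0.669%. Without restricted replicate 4, edgeR called 5 of 50 members of the lower list, all of them lower in the field, and 1 of 50 of the higher list. Its calls over all transcripts went from 356 of 36337 to 2277 of 37128.

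The fitted log2 fold change of field over laboratory ran from -0.63 to 0.57 in the higher list (median 0.09, with 29 of 50 above 0) and from -1.56 to 0.82 in the lower list (median -0.05, with 19 of 50 above 0). PmetTSAr1.1-034841 (0.57, SE 0.183, edgeR adjusted p = 0.165) and PmetTSAr1.1-018790 (-0.21, SE 0.103, edgeR adjusted p = 0.348) did not pass the test, and neither did PmetTSAr1.1-001606 (-0.01, SE 0.0705, edgeR adjusted p = 0.968).

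**Figure D5:**
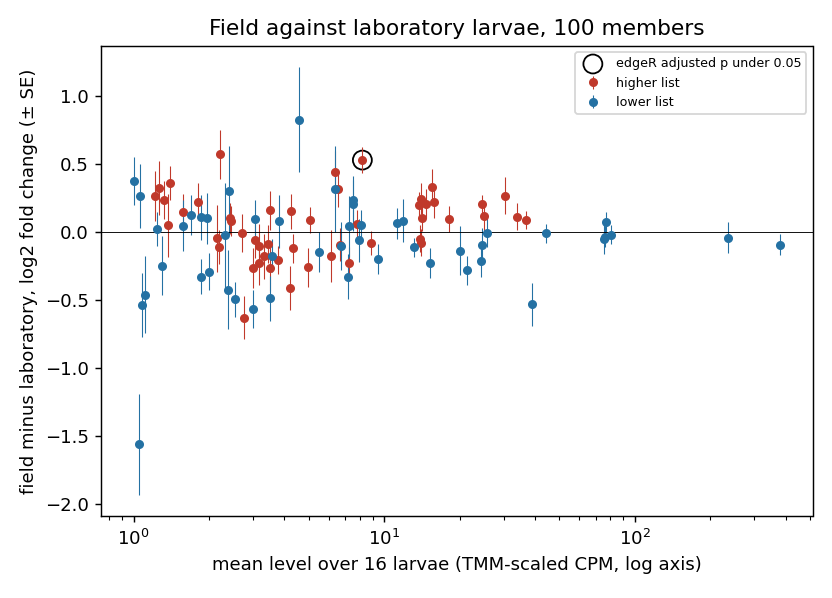
Log2 fold change of field over laboratory larvae with its standard error (y axis) for the 100 members against their mean level over 16 larvae (x axis, log scale). The circled point is PmetTSAr1.1-016254 (0.53), and most members of both lists lie within 0.5 of 0.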

How the data were processed

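RNA from single larval heads was sequenced after RNeasy extraction and TruSeq library preparation, per the labels' protocols. The authors deposited whole-number counts for 74517 transcripts in 16 libraries, totalling 28359372 to 37626473 counts each. Per the submitters' processing notes, Bowtie2 and eXpress were used. For their versions, the assembly, the strand setting and the treatment of shared reads, nothing is given in the sources used here. Members had a median of 156 counts in a library, and the lowest count was 8.

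The members and lists were chosen with earlier results of these data known. TMM factors came from edgeR 4.0.16 (R 4.3.3) over all rows, and the rule was run in Python 3.11.15. Of 24186 rows with a mean of at least 1 CPM, 3 had no t value because a pair of groups had no spread. Field and laboratory larvae were compared with edgeR's robust quasi-likelihood F test after filterByExpr by group, at an adjusted p under 0.05. Standard errors were taken as the size of the log2 change over the root of F. DESeq2 1.42.0 and limma 3.58.1 (voom), other scalings and filters, and omission of each library were alternatives. Both procedures were run on simulated counts, the rule without TMM scaling. The planted changes were larger than the differences of most members, so these runs checked the code and not the choice of these members. Members were named by rule: in each list the first 8 by the weaker t, the 3 most abundant, the last 2 inside and the first 2 outside, and those called between field and laboratory larvae. The others are marked where they appear, except members of the pairs with consecutive identifiers or with correlated levels, which were listed by those criteria. No gene annotation was used, so gene lists and cell type markers were not run.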

Additional observations from a re-analysis of the deposited data

Results flagged for a closer look

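In groups of 4 larvae, a value far from the other 3 was looked for in each of the 36 members named above and in the library measures given there. It was found in 9 of 168 groups, where chance flags about 1 in 20, or 8.4. PmetTSAr1.1-021789 was at 2.45 CPM in worker-reared replicate 1, with 2.97 to 3.07 CPM in the rest of that group. Foundress-reared replicate 3 was low for PmetTSAr1.1-005728 (16.2 CPM, the others 21.9 to 22.8 CPM) and for PmetTSAr1.1-025923 (2.86 CPM, the others 3.19 CPM each). For PmetTSAr1.1-016043 foundress-reared replicate 1 was low, at 12.6 CPM where the others had 13 CPM. PmetTSAr1.1-021777 was at 4.87 CPM in foundress-reared replicate 1 where its 3 group mates had 17 to 17.6 CPM, and at 12.6 CPM in restricted replicate 3 with 4.08 to 4.89 CPM in the other restricted larvae. Ad libitum replicate 3 was low for PmetTSAr1.1-006786 (5.6 CPM, the others 7.54 to 7.88 CPM) and for PmetTSAr1.1-017055 (4.93 CPM, the others 7.41 to 7.79 CPM). Restricted replicate 4 was at -48.3 on the main axis of variation, against 19.3 to 32.1.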

How the results depend on the processing

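The choice of members held under another pseudocount, with 100 of 100 chosen again at 0.1 CPM and 98 at 1 CPM. It also held with upper quartile scaling (77) and a minimum of 0.5 CPM (79). An equal-variance t gave the same 100 by construction, because with 4 larvae in every group it equals the t used. The choice gave 50 of 100 with a minimum of 5 CPM, where 50 members fall short, and 17 with library totals alone. Omission of single larvae gave 34 to 79, and omission of both restricted replicate 4 and ad libitum replicate 3, chosen after seeing the data, gave 12. With library totals alone the median caste difference was 0.83 in the higher and -0.045 in the lower list. Medians without single larvae were taken in the lists as chosen with every larva included. In the higher list they ran from 0.38 to 0.46 for caste and from 0.33 to 0.43 for nutrition. In the lower list they ran from -0.46 to -0.37 and from -0.51 to -0.35. These ranges are no test of stability, because the members were chosen by the same differences with the omitted larva included. The number of larvae with over 50 of 100 transcripts nearer their own group was 11, also with a pseudocount of 1 CPM, and 12 with library totals.

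Between field and laboratory larvae, 356 transcripts were called, 1155 with DESeq2, 193 (without restricted replicate 2) to 2277 (without restricted replicate 4) when single larvae were left out, and 1753 without both larvae named above. Calls in the higher list numbered 3 with DESeq2, 0 without a low-count filter and 1 each time a single larva was left out. Calls in the lower list numbered 3 with DESeq2, 0 to 5 without single larvae and 3 without both. PmetTSAr1.1-016254 was called in 23 of 24 fits and had an adjusted p of 0.0609 without the low-count filter, over a range of log2 fold change of 0.49 to 0.58. The cause of these shifts was not tested. No paired analysis was possible because the labels number no replicates, do not say what the digits in the sample codes stand for, and give only 1 code that, the letter W aside, occurs in both field groups.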
